A study of Homo sapiens with 2 samples.

Results

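The genes described here were 10 members of 3 families that restrain growth factor signaling to ERK, namely the Sprouty genes SPRY1, SPRY2, SPRY3 and SPRY4, the Sprouty-related genes SPRED1, SPRED2 and SPRED3, and the dual-specificity phosphatase genes DUSP4, DUSP5 and DUSP6. They were taken by gene symbol from 19198 genes listed by mRNA sequencing. The set was chosen by the difference in FPKM of SPRY4, which was higher in NICD1-overexpressing cells, so the SPRY4 values are a description. The 2 libraries came from cells labelled as the lung adenocarcinoma line A549. A549-NICD1 carried an overexpression construct for the NOTCH1 intracellular domain, the part of the receptor that enters the nucleus when Notch is activated. A549-Vector carried the empty vector. By the study's methods such lines were made with viral vectors and antibiotic selection, and whether a line was a clone or a pool is not given in the sources used here. With 1 library for each condition there is no replicate check and no p-value is given. RNA was measured in bulk, where fewer expressing cells and less RNA per cell cannot be told apart.

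Receptor tyrosine kinases activate RAS, which switches on the kinases RAF, MEK and ERK in turn. Active ERK induces transcription of its own inhibitors, so that signaling is damped after it starts. Sprouty proteins act at the membrane between receptor and RAF, SPRED proteins bring the RAS-inactivating protein neurofibromin to the membrane, and DUSP proteins remove the activating phosphates from ERK, DUSP4 and DUSP5 in the nucleus and DUSP6 in the cytoplasm. In lung epithelium, Sprouty genes are known for limiting the response to FGF during airway branching.

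The stretches of 250 bases before annotated start sites are shown for SPRY4 and DUSP6, which had the highest and next highest fold changes. They are also shown for SPRY1 and SPRY2, which held matches to the motifs searched. Sequences are from RefSeq on GRCh38.p14, 5′ to 3′ on the strand of the gene, with matches in capitals. The SPRY4 stretch is chr5:142324248-142324497 on the minus strand, DUSP6 is chr12:89352502-89352751 on the minus strand, SPRY1 is chr4:123398136-123398385 on the plus strand and SPRY2 is chr13:80341127-80341376 on the minus strand. The SPRY4, DUSP6 and SPRY1 stretches lie inside the GENCODE 29 spans of their genes, before a start that RefSeq places within the span, and the SPRY2 stretch lies upstream of its span.
SPRY4: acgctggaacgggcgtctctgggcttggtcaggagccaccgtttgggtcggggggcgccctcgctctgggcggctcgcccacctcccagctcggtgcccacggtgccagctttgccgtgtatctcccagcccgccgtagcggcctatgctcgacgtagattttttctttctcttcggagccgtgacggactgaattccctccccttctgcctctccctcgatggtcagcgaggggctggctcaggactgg
DUSP6: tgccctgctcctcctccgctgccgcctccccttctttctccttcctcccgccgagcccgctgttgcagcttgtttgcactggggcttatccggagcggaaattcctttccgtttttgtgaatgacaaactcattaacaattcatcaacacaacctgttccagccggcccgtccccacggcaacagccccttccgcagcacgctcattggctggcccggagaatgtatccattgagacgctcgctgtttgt
SPRY1: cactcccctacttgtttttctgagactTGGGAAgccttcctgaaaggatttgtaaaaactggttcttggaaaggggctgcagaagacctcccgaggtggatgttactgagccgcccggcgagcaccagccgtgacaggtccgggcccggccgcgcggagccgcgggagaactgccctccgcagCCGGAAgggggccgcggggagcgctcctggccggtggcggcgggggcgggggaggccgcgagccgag
SPRY2: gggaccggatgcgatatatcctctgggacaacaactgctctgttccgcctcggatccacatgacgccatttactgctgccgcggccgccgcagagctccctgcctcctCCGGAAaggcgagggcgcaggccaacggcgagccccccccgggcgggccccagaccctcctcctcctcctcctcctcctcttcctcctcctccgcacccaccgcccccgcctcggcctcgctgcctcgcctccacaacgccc

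The motifs searched on both strands were TGGGAA for RBPJ, the DNA-binding partner of NICD1, CCGGAA for ETS factors, TGANTCA for AP-1, TGACGTCA for cyclic AMP response elements and CACGTG for HES and related factors. None of them was found in the SPRY4 or DUSP6 stretch. SPRY1 held TGGGAA at 223 to 218 bases and CCGGAA at 67 to 62 bases before its start, and SPRY2 held CCGGAA at 142 to 137 bases. The other SPRY1 stretch, chr4:123396545-123396794 directly before the GENCODE 29 span, held no match, nor did the other 2 stretches of SPRY2. Over all 14 stretches of the 8 members with an entry, the RBPJ motif was in 1, the ETS motif in 2 and the AP-1 motif in 1, which was TGACTCA in SPRED3. Among 35116 stretches of the same length in the RefSeq table, these motifs were in 20.8%, 14.5% and 6.57%. The other 2 motifs were in none of the 14 stretches, and in 1.65% (cyclic AMP response element) and 6.34% (HES) of all stretches. The searches covered these letters and this distance only.

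Levels were deposited as FPKM, reads scaled to gene length and sequencing depth. Whole reads were recovered from them at depths of 48528434 reads for A549-NICD1 and 48602848 reads for A549-Vector. Log2 fold changes are A549-NICD1 over A549-Vector computed from reads with 0.5 added and depths scaled by a trimmed mean of ratios, which understates changes of genes with few reads. Where 2 levels are joined, A549-Vector comes before A549-NICD1. Values in parentheses after levels are 95% exact Poisson intervals, and those after fold changes are 95% Clopper-Pearson intervals. Both cover counting error only. Genes that reached 10 reads in either library, 15379 in all, are called measured, and their median log2 fold change was 0.00. NOTCH1, whose intracellular part was overexpressed, was at 5.40 FPKM with the vector and 2865 FPKM with NICD1, a log2 fold change of 9.11. RFC4, a subunit of the clamp loader of DNA replication, was at 39.5 and 4075 FPKM, and effects of high NOTCH1 and of high RFC4 on the genes below cannot be told apart. Part of the A549 markers went against the label. Of 16 markers listed for A549, 8 reached 1 FPKM in both libraries, 7 were under 1 FPKM in both, and KRT7, KRT81, FGA and FGB of these were listed at 0. Their summed level was 185 FPKM with the vector and 329 FPKM with NICD1, mostly KRT8 and KRT18, and KRT8 was at 85.9 and 176 FPKM. AKR1C1, an aldo-keto reductase abundant in A549, was at 1.15 and 0.553 FPKM. CDKN2A, a cell cycle inhibitor gene that A549 is known to have lost, was at 139 and 138 FPKM. Of 9 genes listed for the embryonic kidney line HEK293, CDKN2A among them, 8 reached 1 FPKM in both, with summed levels of 254 and 240 FPKM. CDKN2A alone gave most of each sum. The neurofilament gene NEFL was next, at 33.5 and 31.9 FPKM, and PEG10 was under 1 FPKM in both, at 0.541 and 0.451 FPKM. The part of cell identity in the values below was not tested.

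SPRY4 was barely detected with the vector, whereas SPRY1 and SPRY2 were readily measured in both libraries. SPRY4 (chr5:142310427-142326455, minus strand, GRCh38, GENCODE 29) had 5 reads and 0.0201 FPKM (0.00652 to 0.0468) in A549-Vector and 197 reads and 0.792 FPKM (0.685 to 0.910) in A549-NICD1. The 2 intervals lay far apart, which describes the gene whose difference chose the set and is no support for it. SPRY4 moved from percentile 17.3 of all genes by level to percentile 34.8, so that it was still a low gene after the difference. Its log2 fold change was 5.22 (4.11 to 7.00), or 37.4-fold (17.3 to 128). It passed the filter on reads only through A549-NICD1. The fold rested on 5 reads, and with pseudocounts of 0.1 and 1 FPKM it became 2.94 and 0.84 on the log2 scale.

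SPRY2 (chr13:80335976-80340951, minus strand), the most highly expressed member, was at 10.1 FPKM (9.50 to 10.7) with the vector and 11.4 FPKM (10.8 to 12.0) with NICD1, a log2 fold change of 0.23 (0.12 to 0.35). SPRY1 (chr4:123396795-123403760, plus strand) went the other way, from 4.46 FPKM (4.09 to 4.86) to 3.49 FPKM (3.16 to 3.84), a log2 fold change of -0.30 (-0.49 to -0.11). Reads of SPRY1 were known up to a factor of 3, being 534 and 417, or 178 and 139 if its smallest possible length was the one used, and in the latter case its interval spanned 0. SPRY3 (chrX:155767812-155782459, plus strand) was barely detected, with 17 reads and 0.0388 FPKM (0.0226 to 0.0621) in A549-Vector and 9 reads and 0.0206 FPKM (0.0094 to 0.0390) in A549-NICD1, and these intervals overlapped. SPRY3 lies in a region that the sex chromosomes share, and how reads that match both copies were counted is not given in the sources used here. Of 18 listed protein-coding genes in such regions, 5 were at 0 in both libraries, including the SPRY3 neighbor VAMP7, and 11 were above 0.1 FPKM in a library. Of all genes, 10.5% were at 0 in both.

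**Figure D1:**
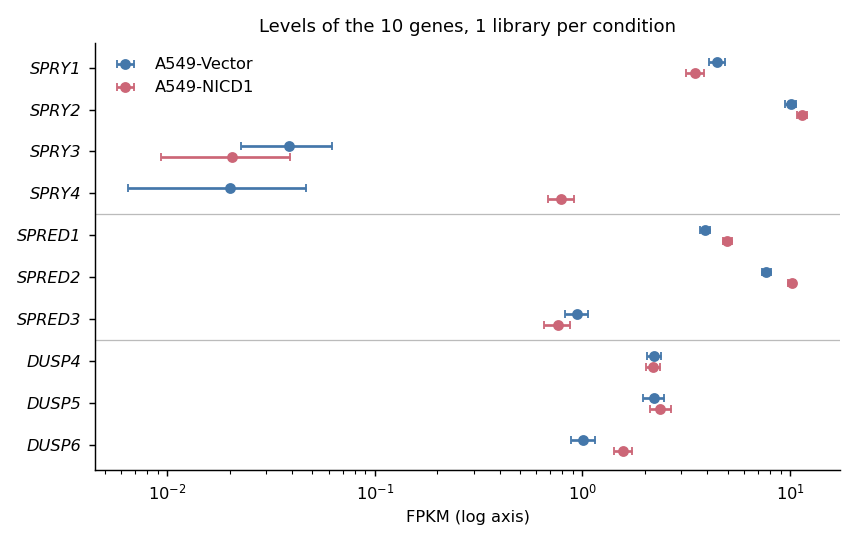
Levels of the 10 genes in FPKM on a log axis, with 1 point per library and bars for 95% counting intervals. SPRY4 lies at 0.0201 FPKM with the vector and at 0.792 FPKM with NICD1, and on this log axis none of the other 9 genes is as far from its vector level.

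SPRED1 and SPRED2 were both higher in A549-NICD1 by similar amounts, and SPRED3 was not. SPRED1 (chr15:38252326-38357249, plus strand), whose loss of function causes Legius syndrome, was at 3.89 FPKM (3.69 to 4.10) with the vector and 4.99 FPKM (4.76 to 5.23) with NICD1, a log2 fold change of 0.41 (0.31 to 0.52). SPRED2 (chr2:65310851-65432637, minus strand) was at 7.69 FPKM (7.32 to 8.08) and 10.2 FPKM (9.74 to 10.6), a log2 fold change of 0.46 (0.36 to 0.55). The intervals of the levels did not overlap between libraries for either gene, and the fold change intervals of the pair overlapped each other. SPRED3 (chr19:38388421-38399587, plus strand) was at 0.941 FPKM (0.823 to 1.07) and 0.759 FPKM (0.654 to 0.876). Its log2 fold change of -0.25 had an interval that included 0 (-0.54 to 0.03).

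Among the phosphatase genes, DUSP6 differed most and DUSP4 least. DUSP6 (chr12:89347232-89353271, minus strand) was at 1.01 FPKM (0.885 to 1.15) with the vector and 1.57 FPKM (1.41 to 1.74) with NICD1, a log2 fold change of 0.69 (0.45 to 0.94), the highest of the set after SPRY4. Its 234 and 363 reads could also be 78 and 121, and 1875 of its exon bases are shared with a gene on the opposite strand, AC024909.2. The study describes the sequencing as strand-specific, but whether the counting used strand is not given in the sources used here, and a part of AC024909.2 reads in the DUSP6 value was not tested. DUSP5 (chr10:110497838-110511544, plus strand) was at 2.21 FPKM (1.95 to 2.48) and 2.37 FPKM (2.11 to 2.66), and its log2 fold change of 0.16 had an interval that included 0 (-0.08 to 0.41). DUSP4 was at 2.21 FPKM (2.04 to 2.38) and 2.19 FPKM (2.02 to 2.36), with overlapping intervals. Its log2 fold change was 0.04 (-0.12 to 0.20), and -0.01 when libraries were scaled by total depth. No other exon overlap was found for the members, and 0% of their 100-base windows occurred in transcripts of another gene.

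Of the 10 members, 1 had a log2 fold change above 1, where 4.59% of measured genes did, and 0 had one below -1, where 2.31% did. The one above 1 was SPRY4, which chose the set. Intervals lay wholly above 0 for 5 members, SPRY2, SPRY4, SPRED1, SPRED2 and DUSP6, and wholly below 0 for SPRY1 alone. Among measured genes, 29.8% had intervals wholly above 0 and 29.7% wholly below. The median log2 fold change over the 10 members was 0.20. Without SPRY4, 4 of the other 9 members had intervals wholly above 0, and the median was 0.16. Since these shares depend on reads, the members were also read against genes of like depth. Of the 2592 genes with 50 to 500 reads summed over both libraries, which include SPRY4 and SPRED3, 8.64% had a log2 fold change above 1, and the 95th percentile was 1.26. Of the 5867 genes with 500 to 5000 reads, which include SPRY1, SPRY2, SPRED1, SPRED2, DUSP4, DUSP5 and DUSP6, the 5th percentile was -0.52 and the 95th was 0.39. SPRED1, SPRED2 and DUSP6 lay above that 95th percentile, but the counting intervals of SPRED1 and SPRED2 included it. With its smaller possible reads of 78 and 121, DUSP6 would belong to the 50 to 500 group, where 0.69 is below the 95th percentile of 1.26.

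**Figure D2:**
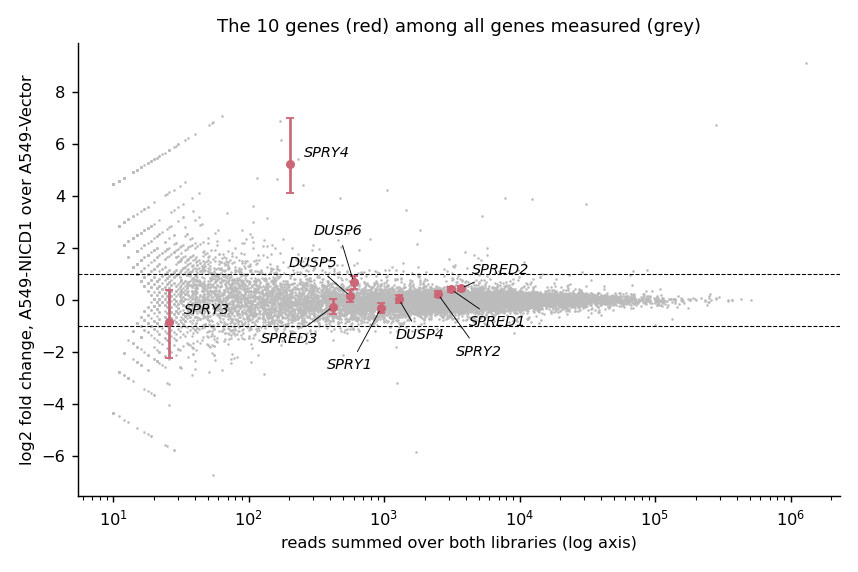
Log2 fold change of A549-NICD1 over A549-Vector against reads summed over both libraries on a log axis, with measured genes in grey, the 10 genes in red with 95% counting intervals and dashed lines at 1 and -1. SPRY4 lies at 5.22 among genes with few reads, and the other 9 genes lie between -0.82 and 0.69.

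In A549-Vector the order of levels per length was SPRY2, SPRED2, SPRY1, SPRED1, DUSP4, DUSP5, DUSP6, SPRED3, SPRY3 and SPRY4. Neighbors in this order whose intervals overlapped were SPRY1 and SPRED1, DUSP4 and DUSP5, DUSP6 and SPRED3, and SPRY3 and SPRY4. In A549-NICD1, SPRED1 stood above SPRY1 with intervals apart, and SPRY4 stood next to SPRED3 with overlapping intervals. By summed FPKM the Sprouty genes were at 14.6 in A549-Vector and 15.7 in A549-NICD1, a log2 ratio of 0.16 after scaling, and without SPRY4 the ratio was 0.09. SPRY2 gave 69.0% and 72.6% of that sum, and SPRY4 gave 0.138% and 5.05%. The SPRED genes summed to 12.5 and 15.9 FPKM, a log2 ratio of 0.40, and SPRED2 gave 61.4% and 63.9%. The 3 phosphatases of the set summed to 5.42 and 6.13 FPKM, a log2 ratio of 0.23. This sum leaves out DUSP7, at 12.8 and 14.9 FPKM, and the ERK phosphatase DUSP9, at 11.9 and 8.70 FPKM. Both stood above each of the 3, and DUSP9 was lower in A549-NICD1, so the ratio describes these 3 genes only. Thus SPRY4, with the largest fold, gave 2.10% of the summed level of the 10 genes in A549-NICD1, and the SPRED sum differed by more FPKM than the Sprouty sum.

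By log2 fold change 36 measured genes stood above SPRY4, a rank that describes the gene the set was chosen by. The 3 genes nearest to SPRY4 in log2 fold change, over the 2 libraries, were CYP2C19, LOC388436 and CHI3L2. They had 0 reads with the vector and 17, 18 and 18 reads with NICD1. Against a floor of 3 reads per library they were 5.90-fold, 6.25-fold and 6.25-fold higher. The lower limits of their counting intervals were 2.10, 2.19 and 2.19 on the log2 scale, and their closeness to SPRY4 depends on the pseudocount. The 6 measured genes nearest to SPRY4 on chromosome 5 were NDFIP1, GNPDA1, RNF14, PCDH12, PCDH1 and ARHGAP26, at 156 to 444 kb. Their log2 fold changes ran from -0.29 for PCDH12 to 0.78 (0.59 to 0.98) for PCDH1, a protocadherin gene at 1.92 FPKM with the vector and 3.18 FPKM with NICD1.

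Genes around the 3 families were described from lists drawn up by role. Counts in each list stand beside 4.59% of measured genes with a log2 fold change above 1 and 2.31% below -1. Among 7 further MAP kinase phosphatases, 2 had a log2 fold change above 1 and 0 below -1, with a median of 0.45 against 0.00 for measured genes. DUSP1, a nuclear phosphatase of several MAP kinases and an early response gene, was highest in level and fold, at 13.8 FPKM with the vector and 38.9 FPKM with NICD1, a log2 fold change of 1.55 (1.46 to 1.64). DUSP8, which acts on JNK and p38, was at 2.46 and 5.68 FPKM, a log2 fold change of 1.26 (1.12 to 1.41). DUSP9, an ERK phosphatase of the cytoplasm, was lowest in fold, at 11.9 and 8.70 FPKM, a log2 fold change of -0.40 (-0.51 to -0.28). All lists, that of ERK outputs included, were chosen with earlier results of these data known. DUSP1 and DUSP8 were already known to differ in these libraries when the phosphatase list was written.

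The 12 genes listed as transcriptional outputs of ERK had a median log2 fold change of 0.55, with 4 above 1 and 0 below -1. Of their intervals, 10 lay wholly above 0 and 1 wholly below. Among measured genes, 4.59% were above 1 and 2.31% below -1. Intervals of measured genes lay wholly above 0 for 29.8% and wholly below for 29.7%. ETV5, an ETS factor, was highest in fold, at 0.346 FPKM with the vector and 1.32 FPKM with NICD1, a log2 fold change of 1.98 (1.60 to 2.39). EGR1, an immediate early zinc finger factor, was at 0.919 and 3.36 FPKM, a log2 fold change of 1.92 (1.65 to 2.21). ETV4, of the same ETS subfamily as ETV5, was at 0.882 and 2.03 FPKM (1.25 on the log2 scale, 0.90 to 1.63), and PHLDA1, a growth factor-induced gene, at 1.07 and 2.14 FPKM (1.06, 0.86 to 1.26). These 4 genes were near or under 1 FPKM in A549-Vector, as SPRY4 and DUSP6 were. ETV1, a listed gene of the ETV4 and ETV5 subfamily, did not rise, at 0.685 and 0.544 FPKM. Its log2 fold change of -0.28 had an interval that included 0 (-0.58 to 0.02). MYC, highest in level, was at 77.1 and 81.2 FPKM, a log2 fold change of 0.13 (0.09 to 0.17). EPHA4, an ephrin receptor, was lowest in fold, at 7.05 and 3.90 FPKM, a log2 fold change of -0.80 (-0.90 to -0.69). With libraries scaled by total depth, 8 of the 12 intervals lay wholly above 0 and 2 wholly below. With reference lengths from all exons of a gene joined, a setting chosen after seeing the data, these numbers were 10 and 2.

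Of 19 growth factor ligands, 16 were measured so, with 5 above 1 and 1 below -1 in log2 fold change, and the median was 0.40. That median rested on genes with few reads, being -0.07 among genes with 100 or more reads summed, where 2 ligands were above 1, and 0.07 with a pseudocount of 1 FPKM. HBEGF, an EGF receptor ligand, was at 3.91 and 8.19 FPKM, a log2 fold change of 1.12 (0.96 to 1.29). IGF2, an insulin-like growth factor, was at 0.726 and 1.80 FPKM, a log2 fold change of 1.36 (1.10 to 1.63). The other 4 had few reads. EREG had 0 reads with the vector and 11 with NICD1. It was 3.82-fold higher against a floor of 3 reads, and the lower limit of its counting interval was 1.39 on the log2 scale. HGF had 10 and 26 reads (1.39 on the log2 scale, 0.34 to 2.65), while FGF10 had 8 and 16 and BTC had 11 and 5, with intervals that included 0. VEGFA, highest in level, was at 9.53 and 12.3 FPKM, a log2 fold change of 0.42 (0.32 to 0.51).

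Of 16 receptor tyrosine kinases, 12 had intervals wholly below 0 and 2 wholly above, where 29.7% and 29.8% of measured genes did. Past 1 or -1 there were 0, and the median log2 fold change was -0.22. The lowest was KDR, a VEGF receptor, at 0.292 FPKM with the vector and 0.146 FPKM with NICD1 (-0.93, -1.51 to -0.40). The highest was PDGFRB, a PDGF receptor, whose log2 fold change of 0.44 had an interval that included 0 (-0.16 to 1.06). ERBB2, a receptor of the EGF receptor family and highest in level, was at 26.3 and 24.0 FPKM, a log2 fold change of -0.08 (-0.13 to -0.02). Receptor and ligand medians lay on opposite sides of 0 under each of the 4 scalings, but not among genes with 100 or more reads summed, where they were -0.24 and -0.07.

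The 18 genes from adaptors to ERK differed little. Their log2 fold changes ran from -0.15 for SOS1, a RAS activator, to 0.17 for FRS2, an FGF receptor adaptor, with a median of 0.02, or -0.04 with libraries scaled by total depth. MAP2K2, a MEK gene and highest in level, was at 108 and 109 FPKM. Of 10 other brakes of the pathway, 0 were past 1 or -1, and the median was -0.03. These ran from LRIG1, a negative regulator of EGF receptors, at 20.7 and 15.7 FPKM (-0.34, -0.41 to -0.28), to RASA1, a RAS GTPase-activating protein, at 0.09 (0.02 to 0.16). PEBP1, a RAF inhibitor and highest in level, was at 156 and 155 FPKM. Of 8 genes for proteins that bind, modify or degrade Sprouty, CAV1 alone was past -1 and 0 were past 1, with a median of -0.04. CAV1, the caveolae coat protein gene, was at 4.52 and 1.93 FPKM, a log2 fold change of -1.17 (-1.39 to -0.96). TESK1, a kinase that binds Sprouty proteins, was highest in fold, at 5.50 and 8.10 FPKM (0.61, 0.47 to 0.76). CBL, a ubiquitin ligase bound by Sprouty and highest in level, was at 15.9 and 14.6 FPKM (-0.06, -0.11 to -0.02).

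**Figure D3:**
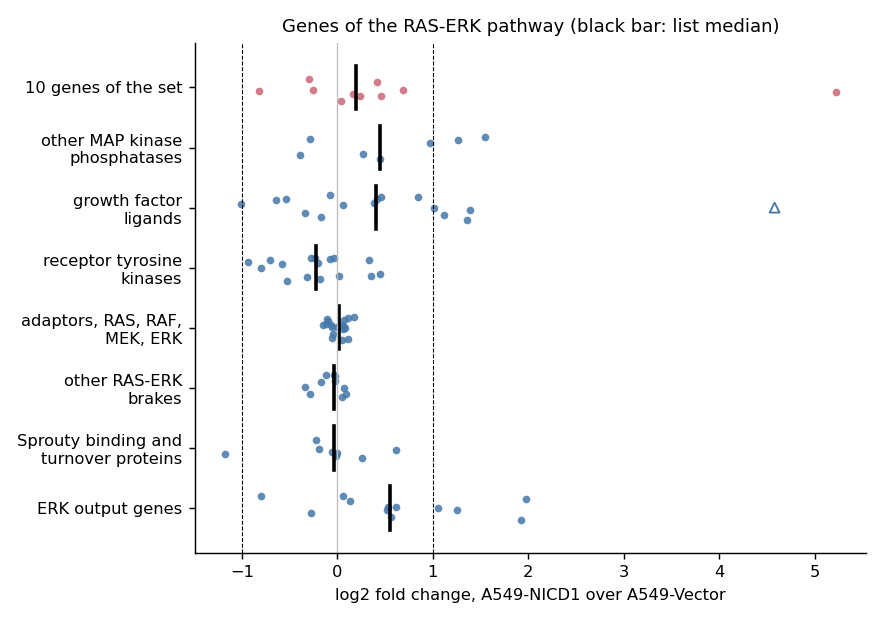
Log2 fold change of A549-NICD1 over A549-Vector for the measured genes of each list, with 1 point per gene, black bars at list medians and dashed lines at 1 and -1. The open triangle is EREG, at 0 reads in A549-Vector, whose position depends on the pseudocount, and medians run from -0.22 for receptors to 0.55 for ERK output genes.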

How the data were processed

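Poly(A) RNA of 1 A549-NICD1 and 1 A549-Vector library was sequenced on an Illumina NovaSeq and grouped by the genotype labels. The authors deposited 1 value per gene and library, read here as FPKM. The submitters' processing notes name Bowtie2, HTSeq and hg38, and the study describes the sequencing as strand-specific, while versions, annotation, gene lengths and the strand setting of the counting are not given in the sources used here. Of 19225 rows, 27 with a date number for a name were left out.

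Reads were recovered from the FPKM values alone. Ratios of low genes gave the ratio of depths, 1.00153, and the depths were those at which the highest number of gene lengths equalled a GENCODE 29 transcript length as whole numbers. Of 1937 genes searched, 77.1% had a whole length there and 186 equalled a transcript length, against 40 at the next best depth. All 17178 genes above 0 in a library gave whole reads. Of a sample of 1341 genes that reached 100 reads summed, 100% gave whole reads at these depths and 1.19% at a depth 1% higher. For each gene the multiple of its smallest whole length nearest to its longest coding transcript was used. Names matched GENCODE 29 for 18787 genes. Recovered reads add up to 118% of the depth in both libraries, so that some genes were given a whole multiple of their true reads, which leaves ratios unchanged but narrows intervals.

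Log2 fold changes used reads plus 0.5, at least 10 reads in a library and scaling by an unweighted trimmed mean of log ratios (30% of ratios and 5% of the expression range trimmed at each end), with a factor of 0.962. With 1 library per condition no test was made. Whether molecular identifiers were used is not given in the sources used here, so reads may be copies of 1 molecule. Steps were run in Python 3.11.15 with numpy 2.4.6, scipy 1.17.1, pandas 2.3.3 and matplotlib 3.10.9 and tested on simulated data.

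The members and gene lists were chosen with earlier results of these data known. Named were all members, NOTCH1, the 3 genes nearest to SPRY4 and, from each list, genes past a log2 fold change of 1 or -1, the highest in level and the highest and lowest in fold. RFC4, VAMP7, AKR1C1, CDKN2A, NEFL, PEG10, ETV1, DUSP7 and the neighbors of SPRY4 were named outside this rule, after their values were seen. Alternatives covered scaling, pseudocount, filter and gene length.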

Additional observations from a re-analysis of the deposited data

How the results depend on the processing

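The log2 fold change of SPRY4 kept its direction under all 8 alternatives run on it, and ranged from 0.84 to 5.22, with 2.94 at a pseudocount of 0.1 FPKM and 0.84 at 1 FPKM, since these swamp 0.0201 FPKM. At 1 FPKM no member was above 1 (0), and a filter on a mean of 1 FPKM, which keeps 7 members and drops SPRY4, also left 0. Members with intervals wholly below 0 numbered 2 with scaling by total depth, which moved the median of all genes to -0.06, and 0 with the smallest whole lengths, a setting chosen after seeing the data. Genes above 1 and below -1 numbered 706 and 355 as reported, 322 and 129 with 0.1 FPKM, 45 and 7 with 1 FPKM, 1526 and 791 without a filter, 169 and 92 among genes of 100 or more reads summed, and 88 and 32 among genes averaging 1 FPKM or more. DUSP6 was at 0.39 with 1 FPKM. Of the values tried for the other 9 members, DUSP4 alone changed sign, at -0.01 with total depth. No paired analysis was possible because there was 1 library of each kind, and for the same reason no library could be left out. Depth limits SPRY3 and SPRY4 most. On a gene of median length 3 reads are 0.0195 FPKM, and they are less on SPRY4 and SPRY3, whose lengths of 5127 and 9024 bases are above the median.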
